A study of Mus musculus with 19 samples.

Results

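The RNAs described here are 9 mouse long noncoding RNAs, taken by gene symbol from the count files of the study. They are the small nucleolar RNA (snoRNA) host genes Snhg1, Snhg3, Snhg5, Snhg6, Snhg8, Snhg12 and Gas5, and the nuclear RNAs Malat1 and Neat1. All 9 are held in the files, among 23420 genes. RNA-seq was performed on 19 libraries of pluripotent cells: 14 from induced pluripotent stem cells (iPSC), 3 from embryonic stem cells (ESC) and 2 from epiblast stem cells (EpiSC). The study asked how genetic background and culture medium affect the pluripotent state. The comparisons below ask whether these RNAs differ by cell state, medium, strain or sex.

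The ESC were male lines of NOD/ShiLtJ, WSB/EiJ and 129S1/SvImJ at passage 6, 1 library per strain, kept in serum-containing ESC/LIF medium with inhibitors of GSK3B and MEK. The EpiSC were a male NOD/ShiLtJ line at passage 38 and a male line of 129/Sv background at passage 16, kept in EpiSC conditions. The iPSC came from embryonic fibroblasts reprogrammed with a polycistronic lentivirus that expresses Oct4, Klf4, Sox2 and Myc constitutively and was not excised, and each library is 1 clone. NOD/ShiLtJ iPSC (2 male and 2 female clones) and WSB/EiJ iPSC (2 male and 2 female clones) were derived and kept in 2iS, which is ESC/LIF medium with the same inhibitors. 129S1/SvImJ iPSC were kept in ESC/LIF (2 male and 2 female clones), and the 2 male clones, 1 and 17, were sequenced again at later passages in 2iS. With 1 line per strain, the spread among ESC or EpiSC is also a spread among strains.

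The groups follow the sample titles. The source names and characteristics name another condition for every library, and counts on Chromosome Y genes went against the titled sex in 0 of 19 libraries and against the sex given as a characteristic in 10 of them. Between 92996 and 226794 read pairs were counted on genes in 17 libraries, which was 1.15% to 1.74% of their uniquely aligned read pairs. The 2 NOD/ShiLtJ male iPSC libraries stood apart, with 430173 and 567432 counts and 5.59% and 5.62% of aligned pairs on genes. Of the 100 genes with the most counts in the 17 libraries, 87 of the 97 found in the annotation had exons overlapped by a gene on the opposite strand, against 40 of 97 in the NOD/ShiLtJ males and 24.6% of all annotated genes. The library kit keeps strand, and the strand setting of the counting is not given in the sources used here. Reads of a gene and of its antisense partner thus cannot be told apart. The strand that was counted is not known for the 9 RNAs either, nor whether it was the same in the NOD/ShiLtJ males. Naive pluripotency markers, such as Zfp42 and Esrrb, summed to 1272 to 2079 CPM in ESC, 1589 to 2733 CPM in 12 iPSC and 39.9 to 41.3 CPM in EpiSC, where 5 of the 9 markers were at 0. The 8 primed markers summed to 274 to 607 CPM in ESC, 112 to 361 CPM in these iPSC and 376 to 570 CPM in EpiSC. ESC and EpiSC thus overlapped in the primed sum. Of the 2 primed markers tested between them, 1 was called higher in ESC and 0 lower. CPM are counts scaled to a common total of counts on genes, after TMM normalization, and 3 counts equal 14.9 to 36.4 CPM in the 17 libraries.

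A snoRNA host gene carries snoRNAs in its introns. Splicing releases the introns, the snoRNAs are trimmed out of them and guide chemical modification of ribosomal and other RNAs, and the spliced host RNA is often translated poorly and removed by nonsense-mediated decay. Many host genes start transcription inside a pyrimidine tract, as the genes of the translation machinery do. Malat1 is an abundant RNA that collects at nuclear speckles, where splicing factors are stored. Neat1 is the RNA scaffold of paraspeckles, and its longer isoform is needed to build them.

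Within the gene bounds of GENCODE M21 on GRCm38, Gas5 held 10 snoRNA genes, Snhg1 8, Snhg12 5, Snhg3 and Snhg5 2 each, and Snhg6 and Snhg8 1 each. Malat1 and Neat1 held none. Snhg1 (chr19:8723475-8726443, plus strand) begins 106 bp from the 5′ end of Slc3a2, an amino acid transporter subunit on the other strand, and Gas5 (chr1:161034422-161038539, plus strand) begins 427 bp inside the 5′ end of Zbtb37 on the other strand, with no exon base shared. Snhg12 (chr4:132308623-132311024, plus strand), Snhg5 (chr9:88521050-88522929, minus strand), Snhg8 (chr3:123507552-123508404, minus strand) and Neat1 (chr19:5824708-5845478, minus strand) have no exon base covered on the opposite strand. Snhg3 (chr4:132348014-132353686, minus strand) has 71.5% of its exon bases opposite an exon of Gm17300, Snhg6 (chr1:9941959-9944118, minus strand) 11.1% opposite Mcmdc2, and Malat1 (chr19:5795690-5802672, minus strand) 6.49% opposite Gm37376. Gm17300 and Gm37376 have no row under these names in the count files.

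The bases around the transcription start are shown because many host genes start in such a tract. RefSeq windows on GRCm38.p6 were found for 7 of the 9 RNAs, with 2 starts for Gas5. Each line below gives 30 bases before the start and 20 from it, 5′ to 3′ on the gene's strand. Capitals mark the longest run of C and T letters that touches the stretch from 5 bases before to 10 bases after the start.
Snhg1, chr19:8723457-8723506, plus strand: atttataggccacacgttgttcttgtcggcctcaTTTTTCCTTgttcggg
Snhg12, chr4:132308648-132308697, plus strand: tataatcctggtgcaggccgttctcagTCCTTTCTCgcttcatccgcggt
Snhg5, chr9:88522878-88522927, minus strand: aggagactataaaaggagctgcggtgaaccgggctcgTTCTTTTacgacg
Snhg8, chr3:123508317-123508366, minus strand: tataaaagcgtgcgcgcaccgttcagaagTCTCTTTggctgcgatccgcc
Gas5, second start, chr1:161035136-161035185, plus strand: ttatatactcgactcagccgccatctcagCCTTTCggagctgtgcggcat
Snhg3, chr4:132353667-132353716, minus strand: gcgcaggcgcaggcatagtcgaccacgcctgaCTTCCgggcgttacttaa
Gas5, first start, chr1:161034571-161034620, plus strand: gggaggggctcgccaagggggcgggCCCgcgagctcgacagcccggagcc
Malat1, chr19:5802653-5802702, minus strand: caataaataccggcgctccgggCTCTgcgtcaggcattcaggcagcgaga

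The run was 9 bases in Snhg1 and Snhg12, 7 in Snhg5 and Snhg8, 6 at the second start of Gas5 and 5 in Snhg3. It was 3 bases at the first start of Gas5 and 4 in Malat1, which is no snoRNA host. A run of at least 5 was thus held by 6 of the 8 starts, and by 38% of all 32851 promoter windows searched in the same way. A separate run of at least 5 A and G letters on the gene's strand was held by 1 of the 8 starts and 41.7% of all windows. Such a run reads as C and T on the opposite strand. These are annotated starts, and no start was measured here.

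Malat1 was the most counted of the 9 RNAs. Over the 17 libraries without NOD/ShiLtJ males it had 1486 counts and ranked 266 by count among all genes, while Gas5 had 364 counts, Neat1 220 and Snhg1 128. Snhg5 had 89 counts, Snhg12 41, Snhg8 30, Snhg3 28 and Snhg6 23. Per kilobase of exon the order of the mean levels was Malat1 (98.4 CPM per kb), Gas5 (43.0), Snhg5 (22.3), Snhg1 (18.9), Snhg8 (14.7), Snhg3 (12.0), Snhg6 (10.2), Snhg12 (7.97) and Neat1 (4.67). Malat1 and Gas5 were first and second in each cell state, while the order of the others changed, with Snhg8 at rank 3 in EpiSC and rank 7 in ESC. The last place of Neat1 uses the annotated length of 20771 bases, that of its longer isoform. The libraries were made with an mRNA kit, and how fully it captures Malat1 or either isoform of Neat1 was not tested. In the 12 iPSC, Malat1 stood at 55.9 and Gas5 at 45.6 CPM per kb, and in the ESC at 282 and 45.8.

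**Figure D1:**
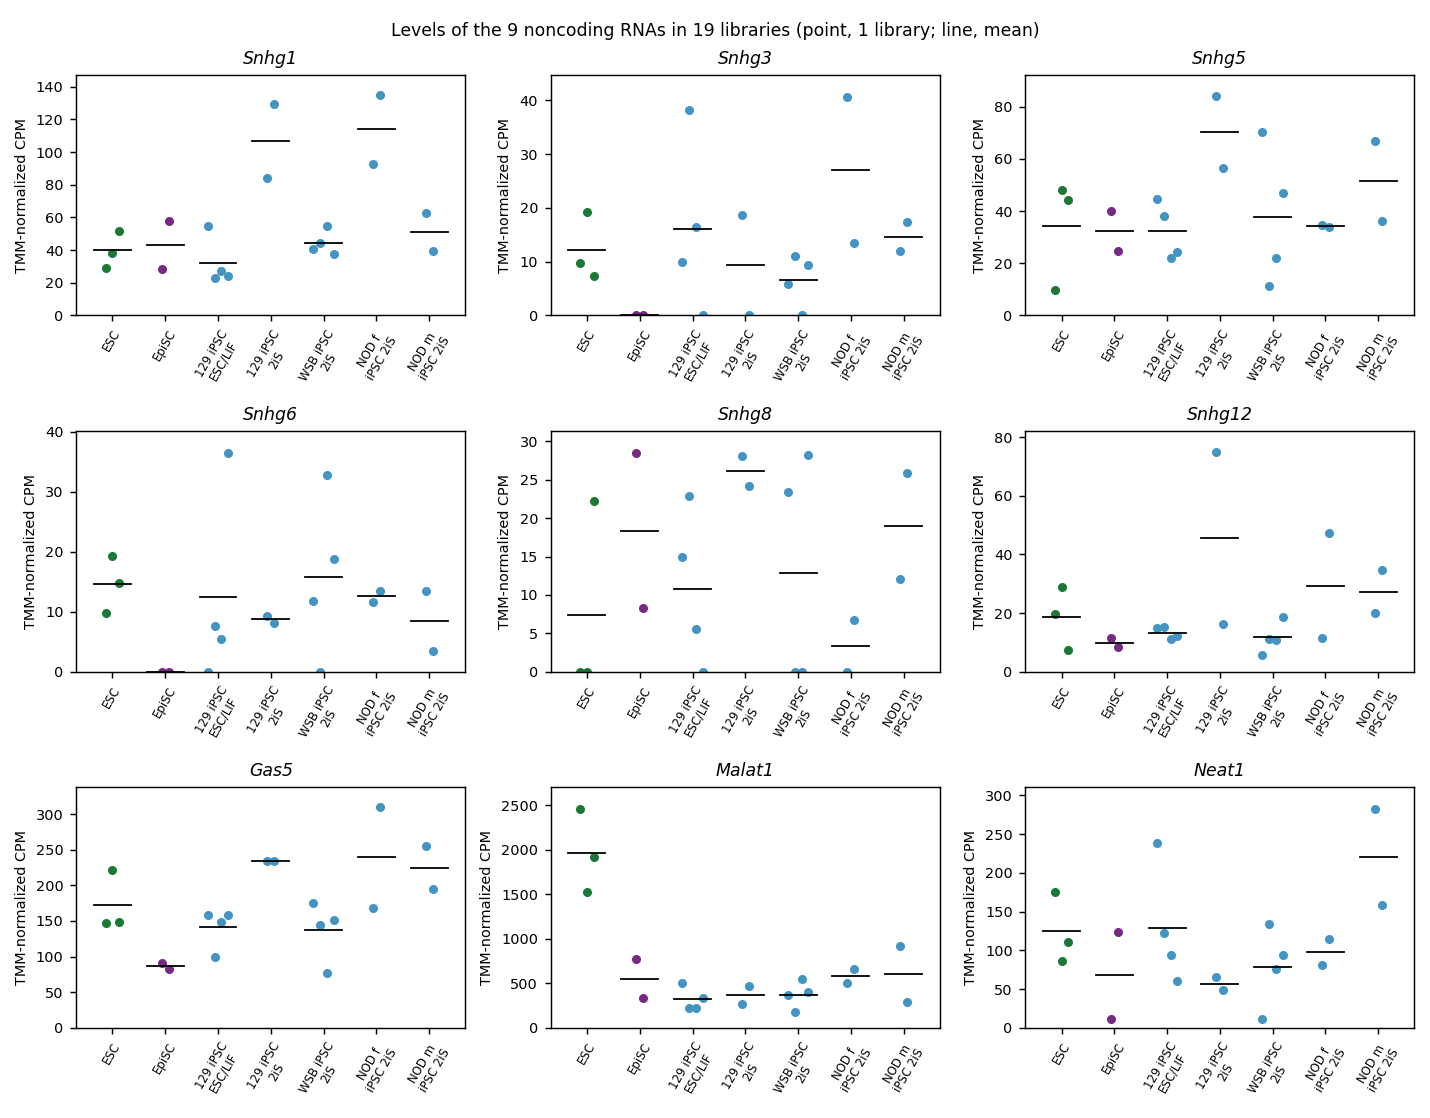
Each panel plots 1 RNA, with TMM-normalized CPM on the vertical axis and the cell groups on the horizontal axis, where points are libraries (green ESC, purple EpiSC, blue iPSC; m, male, and f, female), lines are means, and NOD, WSB and 129 stand for NOD/ShiLtJ, WSB/EiJ and 129S1/SvImJ (129/Sv background in 1 EpiSC line). On this scale the 3 ESC lie at 1522 to 2462 CPM of Malat1, above all other libraries. Most points of Snhg3, Snhg6, Snhg8 and Snhg12 stand for few counts.

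Malat1 was about 5 times lower in iPSC than in ESC. It had 252 counts (2462 CPM) in NOD/ShiLtJ ESC, 158 counts (1522 CPM) in WSB/EiJ ESC and 259 counts (1917 CPM) in 129S1/SvImJ ESC. In the 12 iPSC without NOD/ShiLtJ males it ranged from 178 to 661 CPM with a median of 387 CPM. Every ESC was above every iPSC. The mean was 1967 ± 472 CPM in ESC (SD, n = 3) and 391 ± 150 CPM in iPSC (SD, n = 12), a log2 fold change of -2.33 (SE 0.28, 5.02-fold, edgeR adjusted p = 1.38e-05). It was the 1 RNA that passed of the 4 tested (Malat1, Gas5, Neat1 and Snhg1, those with enough counts), where 5.22% of the 3986 genes tested were called lower in iPSC and 6.22% in either direction.

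Within each strain the ESC line also stood above the iPSC. Its Malat1 level was 5.67 times the mean of 6 iPSC in 129S1/SvImJ, 4.24 times the mean of 2 female iPSC in NOD/ShiLtJ, and 4.06 times the mean of 4 iPSC in WSB/EiJ. Against only the 2 129S1/SvImJ iPSC in 2iS, which share the inhibitors with the ESC, the ratio was 5.18. With only the 8 iPSC in 2iS, a setting added once the values were known, Malat1 differed by a log2 fold change of -2.18 (edgeR adjusted p = 1.19e-04). Passage and laboratory of origin differ between the ESC and the iPSC and cannot be told apart from the cell state.

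Fibroblast markers were higher in the same ESC libraries. The summed level of the 10 markers, collagens, fibronectin and others, was 1817 to 2701 CPM in ESC with 2 markers at 0, and 314 to 1033 CPM in the 12 iPSC with 4 at 0. Only 3 of the 10 had enough counts to test, and 2 were called lower in iPSC, where 5.22% of all genes were. The log2 fold change of iPSC against ESC was -6.20 for Col1a1 and -4.33 for Col5a1. Depletion of embryonic fibroblasts is described for the iPSC and not for the ESC in the sources used here. In the NOD/ShiLtJ male iPSC the same sum was 2806 and 3872 CPM, above every ESC. Of the 10 markers, 6 were at 0 in both of these males, so the sum rests on fewer markers than in the ESC. Malat1 was at 294 and 918 CPM in these males (clones 35 and 3), below every ESC. That order depends on the scale. In aligned CPM (counts scaled to uniquely aligned read pairs), the males were at 22.1 and 67.8 and the ESC at 17.3 to 23.9. Clone 35 thus lay within the ESC range and clone 3 above it. The part of fibroblast RNA in the Malat1 difference was not tested. In bulk RNA, a change in the number of cells of a type and a change in RNA per cell cannot be told apart.

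**Figure D2:**
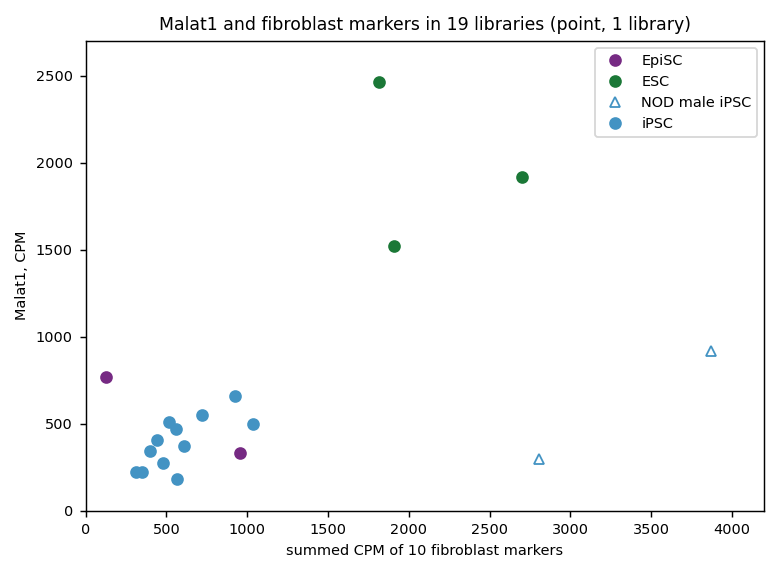
Malat1 in CPM (vertical axis) against the summed CPM of the 10 fibroblast markers (horizontal axis), 1 point per library, colored by cell state, with open triangles for the 2 NOD/ShiLtJ male iPSC. The ESC lie at 1522 CPM of Malat1 or more. The NOD/ShiLtJ males have higher marker sums at 294 and 918 CPM, with 6 of the 10 markers without counts in both. In aligned CPM of Malat1 these males lie within and above the ESC range.

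The EpiSC had 769 CPM of Malat1 in the NOD/ShiLtJ line and 330 CPM in the 129 line, below all 3 ESC and within or just above the iPSC range. ESC were higher than EpiSC by a log2 fold change of 1.83 (SE 0.48, edgeR adjusted p = 0.0125), the 1 call among the 4 RNAs tested, where 6.85% of genes were called higher and 15.1% called in either direction. Without the 129 EpiSC line the log2 fold change was 1.35 (adjusted p = 0.180), so this call rested on that library. iPSC and EpiSC differed by -0.50 (SE 0.37, adjusted p = 0.332), and the direction turned with the EpiSC line left out, to 0.25 without the NOD/ShiLtJ line and -0.97 without the 129 line.

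Gas5, a host whose spliced RNA accumulates in arrested cells, was lowest in EpiSC. It stood at 91.1 CPM (16 counts) and 82.6 CPM (10 counts) in the EpiSC, at 147, 222 and 148 CPM in NOD/ShiLtJ, WSB/EiJ and 129S1/SvImJ ESC, and at 76.5 to 310 CPM with a median of 158 CPM in the 12 iPSC. All 3 ESC and 11 of the 12 iPSC were above both EpiSC, with 1 WSB/EiJ male clone (clone 25, 7 counts) below them. The log2 fold change of iPSC over EpiSC was 0.98 (SE 0.39, edgeR adjusted p = 0.0679), and that of ESC over EpiSC was 0.97 (SE 0.46, adjusted p = 0.161), so neither passed. The first passed under 3 other settings, with 1.49 (adjusted p = 0.00896) scaled to aligned read pairs, 1.12 (0.0377) with strain as a covariate and 1.14 (0.0429) with the 8 iPSC in 2iS only. iPSC and ESC differed by 0.01 (SE 0.31, adjusted p = 0.990).

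Between iPSC and EpiSC, edgeR called 0 of the 4 RNAs, where 28.3% of all genes tested were called. At an unadjusted p under 0.05 the count was 1 (Gas5), and DESeq2 called 0, where it called 11.9% of all genes.

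Neat1 and Snhg1 did not separate the cell states. Neat1 was at 176, 86.7 and 111 CPM in the NOD/ShiLtJ, WSB/EiJ and 129S1/SvImJ ESC, at 11.4 CPM (2 counts) and 124 CPM (15 counts) in the NOD/ShiLtJ and 129 EpiSC, and from 11.7 to 238 CPM with a median of 87.4 CPM in the 12 iPSC. The 2 EpiSC lines thus lay further apart than the 3 ESC lines. Snhg1 was at 29.3, 38.5 and 51.8 CPM in the ESC, at 28.5 and 57.8 CPM in the EpiSC, and from 22.9 to 135 CPM with a median of 49.6 CPM in the iPSC. Every state comparison of these 2 RNAs had an adjusted p of 0.428 or more.

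**Figure D3:**
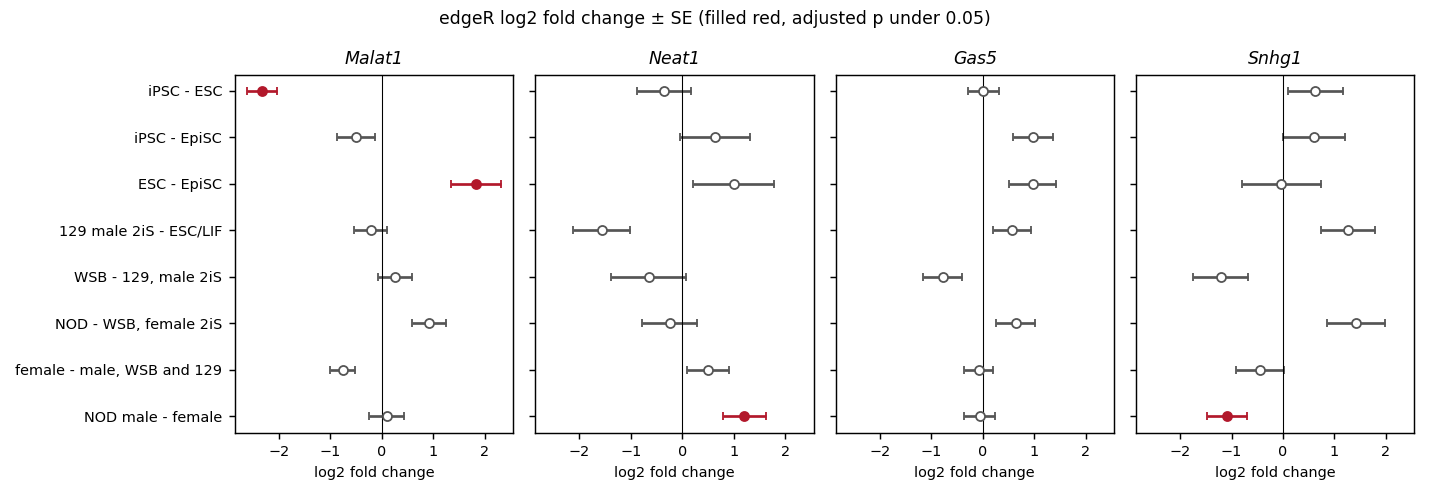
The edgeR log2 fold change (horizontal axis) of Malat1, Neat1, Gas5 and Snhg1 in the 8 comparisons (vertical axis, first group minus second group), with bars of 1 SE and filled red points for an adjusted p under 0.05. The 4 filled points are Malat1 in iPSC against ESC and ESC against EpiSC, and Neat1 and Snhg1 in NOD/ShiLtJ male against female iPSC.

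The other 5 hosts, Snhg3, Snhg5, Snhg6, Snhg8 and Snhg12, had 0 to 12 counts in each of the 17 libraries and did not pass the filter on low counts in the comparisons of these libraries. Snhg3, which hosts a pair of box H/ACA snoRNAs, and Snhg6 had 0 counts in both EpiSC libraries, out of 31165220 aligned read pairs (95% exact Poisson interval up to 0.118 aligned CPM). Aligned CPM are counts scaled to uniquely aligned read pairs in place of counts on genes. Over the 12 iPSC, Snhg3 had 24 counts, or 0.203 aligned CPM (95% Poisson interval 0.130 to 0.303), and Snhg6 had 18 counts, or 0.153 aligned CPM (0.0904 to 0.241). The upper limit for the EpiSC lay within the iPSC interval of Snhg6 and just under that of Snhg3. These intervals cover counting error only, and fitted with no filter on low counts neither RNA passed (edgeR adjusted p = 0.0891 for Snhg3 and 0.143 for Snhg6). Snhg5 was at 10 counts in the EpiSC, 12 in the ESC and 67 in the 12 iPSC, which is 0.321, 0.392 and 0.568 aligned CPM with overlapping intervals.

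Next, the 2 male 129S1/SvImJ clones were compared between media. Clones 1 and 17 were at passages 21 and 20 in ESC/LIF and at passages 31 and 30 in 2iS. Passage and medium thus cannot be told apart here. In CPM, 5 of the 9 RNAs were higher in 2iS than in ESC/LIF in both clones, namely Snhg1, Snhg5, Snhg8, Snhg12 and Gas5. The same held for 19% of the 13304 genes with at least 1 count in the 4 libraries and for 25.1% of the 8222 genes with at least 6 counts. Several of these values rest on few counts, such as Snhg8 with 3 counts in both media in clone 1 and 0 and 3 counts in clone 17, and Snhg12 with 1 and 2 counts in clone 17. Snhg1 went from 54.6 to 84.2 CPM in clone 1 (11 and 9 counts) and from 24.3 to 129 CPM in clone 17 (2 and 16 counts). Gas5 went from 159 to 234 CPM in clone 1 and from 158 to 235 CPM in clone 17. Of these 5, only Snhg1 and Gas5 were tested, and neither passed. Snhg1 had a log2 fold change of 1.27 (SE 0.53, edgeR adjusted p = 0.234) and Gas5 of 0.58 (SE 0.37, adjusted p = 0.542). Snhg5 (2 to 9 counts per library), Snhg8 and Snhg12 had too few counts to be tested here.

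Neat1 was lower in 2iS in both clones, at 238 against 65.5 CPM in clone 1 and at 60.7 against 48.5 CPM in clone 17. Its log2 fold change was -1.57 (SE 0.55, edgeR adjusted p = 0.121), and without clone 17 in ESC/LIF, which leaves clone 1 as the 1 library in that medium, it was -2.04 (adjusted p = 0.0198). Without clone 1 in ESC/LIF it was -0.11 (adjusted p = 0.990), so the difference rested on that library. Malat1 moved in opposite directions, from 506 to 271 CPM in clone 1 and from 340 to 469 CPM in clone 17. edgeR called 0 of 4 RNAs between the media, where 4.10% of 3388 genes were called, with 2 at an unadjusted p under 0.05 and 0 by DESeq2. With the clone as a replicate block, the 4 libraries were fitted alone, where Gas5 and Malat1 passed the filter and 0 of the 2 were called, with log2 fold changes of 0.58 (adjusted p = 0.392) and -0.24 (adjusted p = 0.795).

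Among clones in 2iS other than the NOD/ShiLtJ males, Snhg1 was at 84.2 and 129 CPM in 129S1/SvImJ males and at 92.9 and 135 CPM in NOD/ShiLtJ females, but at 37.7 to 54.6 CPM in the 4 WSB/EiJ clones. The WSB/EiJ clones did not overlap the others. WSB/EiJ males were lower than 129S1/SvImJ males by a log2 fold change of -1.21 (SE 0.53, edgeR adjusted p = 0.220), and NOD/ShiLtJ females higher than WSB/EiJ females by 1.42 (SE 0.56, adjusted p = 0.188), so neither passed. Gas5 also had its lower values in WSB/EiJ in both comparisons, but WSB/EiJ male clone 12 lay above NOD/ShiLtJ female clone 7. It was at 76.5 and 176 CPM in WSB/EiJ males against 234 and 235 CPM in 129S1/SvImJ males (-0.78, SE 0.38, adjusted p = 0.291), and at 145 and 151 CPM in WSB/EiJ females against 168 and 310 CPM in NOD/ShiLtJ females (0.64, SE 0.38, adjusted p = 0.441). With 1 library left out these values ranged from -1.60 (without WSB/EiJ male clone 12) to -0.43 (without WSB/EiJ male clone 25) and from 0.19 (without NOD/ShiLtJ female clone 52) to 1.07 (without NOD/ShiLtJ female clone 7), with no call.

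Malat1 was at 499 and 661 CPM in the NOD/ShiLtJ females and at 178 and 405 CPM in the WSB/EiJ females. The groups did not overlap, with a log2 fold change of 0.92 (SE 0.33, edgeR adjusted p = 0.127). It was 1.69 (adjusted p = 0.00977) without WSB/EiJ female clone 28, 1.09 (adjusted p = 0.0327) with no filter on low counts, and 0.47 (adjusted p = 0.528) without WSB/EiJ female clone 23. In the first strain comparison edgeR called 0 of 4 RNAs, where 5.05% of genes were called, with 1 at an unadjusted p under 0.05. In the second it called 0 of 4, where 3.98% of genes were called, with 2 at an unadjusted p under 0.05. DESeq2 called 0 in both.

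In WSB/EiJ and 129S1/SvImJ, where both sexes share a medium, the mean of Malat1 was lower in female than in male iPSC, a difference that did not pass the test. NOD/ShiLtJ clones, which also share a medium, are compared further on. In 129S1/SvImJ in ESC/LIF it was at 222 and 220 CPM in the females and at 506 and 340 CPM in the males. In WSB/EiJ in 2iS it was at 178 and 405 CPM in the females and at 369 and 546 CPM in the males. The sexes did not overlap in 129S1/SvImJ and overlapped in WSB/EiJ. The mean log2 fold change of females against males was -0.76 (SE 0.24, edgeR adjusted p = 0.108), and with 1 library left out it ranged from -1.14 (adjusted p = 0.00502, without WSB/EiJ female clone 28) to -0.54 (adjusted p = 0.209, without WSB/EiJ female clone 23). edgeR called 0 of 4 RNAs, where 1.68% of genes were called, with 1 at an unadjusted p under 0.05 and 0 by DESeq2.

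The NOD/ShiLtJ male iPSC, which stood apart in their share of read pairs on genes, were compared with the NOD/ShiLtJ females, both in 2iS. Neat1 was at 283 CPM (211 counts) in male clone 3 and 159 CPM (92 counts) in male clone 35, and at 81.3 CPM (14 counts) and 115 CPM (17 counts) in female clones 7 and 52. Snhg1 was at 63.0 and 39.8 CPM (47 and 23 counts) in the males and at 92.9 and 135 CPM (16 and 20 counts) in the females. The sexes did not overlap in either. Neat1 was higher in males by a log2 fold change of 1.21 (SE 0.42, edgeR adjusted p = 0.0212) and Snhg1 lower by -1.10 (SE 0.39, adjusted p = 0.0258), 2 of the 5 RNAs tested, where 38.9% of 4457 genes were called.

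Neither call held under every alternative. DESeq2 called 0 of the 5, with Neat1 at 1.11 (DESeq2 adjusted p = 0.411) and Snhg1 at -1.21 (adjusted p = 0.374). Without male clone 3 Neat1 was at 0.69 (edgeR adjusted p = 0.269), and without female clone 7 at 0.99 (adjusted p = 0.158). Snhg1 was at -0.85 (adjusted p = 0.124) without male clone 35 and at -0.78 (adjusted p = 0.301) without female clone 52.

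Gas5 was at 254 and 195 CPM in the NOD/ShiLtJ males and at 168 and 310 CPM in the females, with a log2 fold change of -0.05 (edgeR adjusted p = 0.906). Malat1 was at 918 and 294 CPM in male clones 3 and 35, so that the males lay on either side of the females at 499 and 661 CPM (0.09, adjusted p = 0.853), and without male clone 3 the direction turned (-0.99, adjusted p = 0.0190). Snhg5, tested only here, was at 67.0 and 36.3 CPM in the males and at 34.8 and 33.7 CPM in the females (0.62, SE 0.56, adjusted p = 0.398).

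The scale decides what is called higher in these males. In aligned CPM, the median gene was higher in males by a log2 fold change of 2.61, against 0.18 with TMM normalization. On that scale all 5 RNAs were called higher in males, where 79.1% of all genes were called, with Neat1 at 3.65, Snhg5 at 3.04, Malat1 at 2.54, Gas5 at 2.40 and Snhg1 at 1.34. Snhg1 and Gas5 thus turned direction between the scales. A change of scale moves all genes of a library alike, so the order of the RNAs relative to the median gene stays as it was. The other 4 hosts had 2 to 20 counts per library in the males and 0 to 7 in the females.

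**Figure D4:**
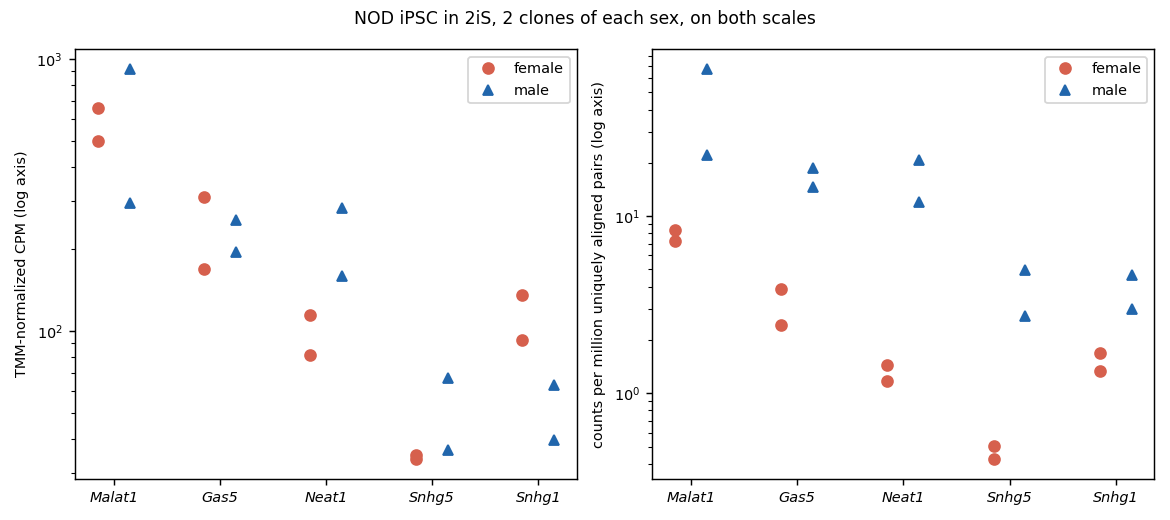
Levels of the 5 RNAs tested in the 4 NOD/ShiLtJ iPSC libraries in 2iS (NOD in the title), as TMM-normalized CPM on the left and counts scaled to uniquely aligned read pairs (aligned CPM) on the right, both on log axes, with circles for female and triangles for male clones. Snhg1 is lower in males on the left and higher on the right.

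Genes that act with these RNAs were read from lists of their pathways. Of 10 other nuclear long noncoding RNAs, 8 were in the files and 4 were tested between states. Between iPSC and ESC, 2 of the 4 were lower in iPSC, where 5.22% of all genes were: Xist, the RNA that silences an X chromosome, from 5360 ± 824 CPM in ESC (SD, n = 3) to 1608 ± 654 CPM in iPSC (SD, n = 12) (log2 fold change -1.74, edgeR adjusted p = 1.17e-05), and Kcnq1ot1, an imprinted silencing RNA, from 123 ± 30.7 to 26.6 ± 11.7 CPM (-2.18, adjusted p = 2.27e-05). All 3 ESC were above every one of the 12 iPSC for both, as for Malat1. The median log2 fold change of the 4 was -1.67, against 0.05 for all genes. Between ESC and EpiSC, 3 of the 4 were higher in ESC, where 6.85% of all genes were: Xist (6.52, adjusted p = 5.27e-09), Kcnq1ot1 (2.76, adjusted p = 6.88e-04) and Tsix, the antisense RNA of Xist, with 25 to 66 counts in ESC and 0 counts in both EpiSC (adjusted p = 0.00494). The ESC are male, and the row named Xist held 593 to 610 counts in them. Reads of Xist and Tsix cannot be told apart without the strand setting.

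The proteins that assemble on snoRNAs were higher in iPSC than in EpiSC in 4 of 7 tested, where 28.3% of all genes were called, with a median log2 fold change of 1.11 against 0.10 for all genes. The 4 called by edgeR were Nop58, a core protein of box C/D particles (393 ± 85.5 against 178 ± 53.8 CPM, log2 fold change 1.12, edgeR adjusted p = 0.00118), Dkc1, the pseudouridine synthase of box H/ACA particles (1.11, adjusted p = 0.00757), Nolc1, a chaperone of these particles (1.19, adjusted p = 2.48e-04), and Nufip1, an assembly factor (1.90, adjusted p = 0.00135). DESeq2 called 3 of the 7. Of 9 nuclear speckle proteins tested, 1 was higher in iPSC than in ESC, the splicing factor Srsf7 (0.89, adjusted p = 0.00182), and DESeq2 called 0 of the 9. The 8 paraspeckle proteins tested gave 0 calls between iPSC and ESC with edgeR, 0 at an unadjusted p under 0.05 and 0 with DESeq2.

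In NOD/ShiLtJ male against female iPSC, 38.9% of all genes were called with TMM normalization. Directions between these males and females are given on that scale. The median gene was higher in males by a log2 fold change of 0.18 on it, and by 2.61 in aligned CPM. Of 9 paraspeckle proteins 1 was called, Tardbp, which was lower in males (-1.09, edgeR adjusted p = 9.68e-05), and of 10 speckle proteins 1, the scaffold Srrm2, which was higher (1.11, adjusted p = 2.17e-05). Of 9 nonsense-mediated decay factors 1 was called, Smg5, which was higher (0.78, adjusted p = 0.0176), and of 4 other nuclear RNAs 1, Xist, which was lower (-1.41, adjusted p = 6.04e-04). DESeq2 called 1 paraspeckle and 1 speckle protein, and 0 genes of the latter lists. Of 16 other snoRNA hosts, 8 were in the files and 1 was tested, Rian, an imprinted host of box C/D snoRNAs, which was higher in NOD/ShiLtJ than in WSB/EiJ females (4.09, adjusted p = 3.90e-05), as was its neighbor Meg3 (4.34, adjusted p = 5.05e-07), while Tsix was lower (-3.99, adjusted p = 2.40e-07). DESeq2 did not call Rian in this comparison, and it called 1 of the other nuclear RNAs. Tsix was higher in females than in males of WSB/EiJ and 129S1/SvImJ (3.12, adjusted p = 1.41e-07).

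Slc3a2, which starts beside Snhg1, was the 1 neighbor on the opposite strand with enough counts to test. It was at 87.9 to 96.3 CPM in ESC, at 188 and 215 CPM in EpiSC and at 52.7 to 214 CPM in the 12 iPSC, and no comparison passed (lowest adjusted p = 0.120). Mcmdc2 and Zbtb37 had 0 to 5 counts in each of these libraries.

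The genes whose levels ordered the 17 libraries most like Gas5 were Adh5 (Spearman rho 0.84), Kpna3 (0.79) and Sec31a (0.76). For Malat1 they were H2-T24 (0.81), Dlgap1 (0.80) and the speckle protein gene Srrm2 (0.78), and for Neat1 Shmt2 (0.70), Rock2 (0.68) and G630025P09Rik (0.67). They are the highest of 2353 genes compared over libraries that share cell states and depth, and are given as a description. Among themselves these RNAs were little alike, with a rho of 0.08 between Gas5 and Malat1, -0.25 between Gas5 and Neat1, and -0.01 between Malat1 and Neat1.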

How the data were processed

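RNA-seq libraries from 14 iPSC, 3 ESC and 2 EpiSC were made with a stranded mRNA kit. The authors trimmed the read pairs with Trimmomatic, aligned them to GRCm38 with TopHat2 2.1.1, counted them with HTSeq in intersection-nonempty mode, and deposited raw counts per gene symbol with no normalization. The annotation and strand setting are not given in the sources used here.

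The tests used edgeR 4.0.16 under R 4.3.3 (TMM normalization, filterByExpr, quasi-likelihood test, Benjamini-Hochberg adjusted p under 0.05 over all genes tested). Cell states were fitted over 17 libraries, and iPSC over 12, or over 14 for NOD/ShiLtJ males. The levels in CPM use TMM factors of all 19 libraries. DESeq2 1.42.0, other scalings, no filter, strain as a covariate, other labels and left-out libraries were alternatives, and iPSC in 2iS only was added once values were known. Uniquely aligned read pairs are the counts on genes plus those the files list as outside genes or ambiguous. Replicate clones of a group differed by more than sampling noise.

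The 2 male 129S1/SvImJ clones are the same lines in both media, so the media are paired. Their clone differences correlated at 0.067 over 2160 genes.

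Of the 23420 genes, 23074 (98.5%) matched GENCODE M21. The RNAs and lists were chosen with earlier results of these data known. Named genes are the 9 RNAs, their opposite-strand neighbors, up to 3 called genes per list and comparison, and the 3 genes most like an RNA with a mean count of at least 10. On simulated counts, 59.5% to 95.5% of the genes given a log2 fold change of 2 were recovered, depending on the comparison. Of the calls, 2.16% to 8.21% were false. The changed genes had a mean count of at least 10, so this recovery does not cover RNAs with fewer counts.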

Additional observations from a re-analysis of the deposited data

Results flagged for a closer look

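Snhg1 in male clone 1 of 129S1/SvImJ in ESC/LIF was at 54.6 CPM (11 counts). It lay above the other 3 129S1/SvImJ iPSC in ESC/LIF, which were at 22.9 to 27.5 CPM (2 to 5 counts). At so few counts, counting error and a difference between clones cannot be told apart. Its gap to the nearest of them was 0.856 of the range of the 4 clones, above the critical value of Dixon's test, a gap that chance gives in about 1 of 20 groups. It was the 1 such gap among 18 sets of 4 libraries examined (9 RNAs in 2 groups).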

How the results depend on the processing

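The call of Malat1 between iPSC and ESC was kept under all 10 alternatives that use the title conditions, with log2 fold changes from -2.49 to -2.00. With the conditions of the source names, 0 RNAs were called between iPSC and ESC and 0 between ESC and EpiSC. In both, 0% of all genes tested were called. Between iPSC and EpiSC 1 RNA, Gas5, was called when scaled to aligned pairs, 1 with strain as a covariate and 1 with iPSC in 2iS only. Of all genes, 35.3%, 30.3% and 31.5% were called under these settings in turn. In NOD/ShiLtJ against WSB/EiJ females 1 was called with no filter on low counts, where 1.03% of all genes were. In NOD/ShiLtJ males against females 0 were called by DESeq2, 5 when scaled to aligned pairs and 1 with no filter on low counts. There Snhg1 reversed to 1.34 and Gas5 to 2.40 when scaled to aligned pairs, and Malat1 to -0.99 without male clone 3, the lowest of the values with 1 library left out, which reached 0.65 without male clone 35. On leaving out 1 library at a time, 0 to 1 RNAs were called between ESC and EpiSC, between media, between NOD/ShiLtJ and WSB/EiJ females and between the sexes, and 1 to 2 between NOD/ShiLtJ males and females. Where this left 1 library in a group, it was taken to vary as the other groups do. The clone as a replicate block called 0 RNAs and changed no call. Of the 9 RNAs, 3 had a higher mean in ESC than in the 14 iPSC in CPM, and 1 in aligned CPM. Apart from the construction of each alternative, the cause was not tested. In the 17 libraries 3 counts equal at least 14.9 CPM, and Snhg3, Snhg6, Snhg8 and Snhg12 had 3 counts or fewer in most of them.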
